A study of Mus musculus with 3 samples.

Results

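The transcription factors that set myeloid fate form a small group of 10 genes: the C/EBP genes Cebpa, Cebpb, Cebpd and Cebpe, the ETS factor gene Spi1 (PU.1), the interferon regulatory factor gene Irf8, the repressor gene Gfi1, and the stem and progenitor factor genes Runx1, Tal1 and Gata2. They were found by gene name, older names included, on mouse arrays with 41174 probes for 27389 genes. Probes for 9 of the 10 were matched, 14 probes in all. Cebpe had no probe matched by name and was not analysed here. Of the 9, 8 genes (12 probes) were well above background in both channels on every array, and Gata2 was not on any.

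The cells were MigA9, a mouse line transformed with the homeobox factor gene Hoxa9 and grown in RPMI-1640 with 10% fetal calf serum and GM-CSF-conditioned medium, so that every group carried the Hoxa9 transformation and the cytokine. Cells that received 2.5 µM DB818 for 6, 12 or 24 h were compared with untreated cells of the same line. DB818 is a small molecule that binds the minor groove of AT-rich DNA and is used to block HOXA9 from its DNA sites. RNA of the treated cells was labelled with Cy5 and RNA of the untreated cells with Cy3, and 1 array was hybridised per time. The line is a single transformed line with an enforced Hoxa9 programme, no strain or passage is stated, and the labels do not say whether the untreated RNA of the 3 arrays was 1 preparation.

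C/EBPα and PU.1 are the factors without which granulocyte and monocyte progenitors do not form, and they bind many enhancers of myeloid genes together. IRF8 directs progenitors toward monocytes and dendritic cells, whereas GFI1 and C/EBPε serve the neutrophil branch. RUNX1, TAL1 and GATA2 act earlier, in stem and progenitor cells, and TAL1 and GATA2 are kept in the erythroid, megakaryocyte and mast cell lineages. HOXA9 is best known in blood for keeping progenitors immature, and it binds many of the same enhancers as C/EBPα and PU.1.

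Because DB818 is a ligand of AT-rich DNA, the 250 bases upstream of an annotated start are shown for the 5 members that passed the test below and matched a promoter window, from RefSeq (GRCm38.p6), 5′ to 3′ on the gene's strand. Capitals mark runs of at least 5 A or T bases. Irf8 and Tal1 are shown at their outer start, and Runx1 at its outer (distal) and then its inner (proximal) start, since its probes differed.
Irf8, chr8:120736108-120736357, plus strand: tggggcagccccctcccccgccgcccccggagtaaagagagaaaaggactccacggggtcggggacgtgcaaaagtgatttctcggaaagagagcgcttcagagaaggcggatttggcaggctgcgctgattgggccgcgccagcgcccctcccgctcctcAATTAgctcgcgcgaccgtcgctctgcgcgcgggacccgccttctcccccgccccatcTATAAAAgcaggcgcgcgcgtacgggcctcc
Cebpa, chr7:35119043-35119292, plus strand: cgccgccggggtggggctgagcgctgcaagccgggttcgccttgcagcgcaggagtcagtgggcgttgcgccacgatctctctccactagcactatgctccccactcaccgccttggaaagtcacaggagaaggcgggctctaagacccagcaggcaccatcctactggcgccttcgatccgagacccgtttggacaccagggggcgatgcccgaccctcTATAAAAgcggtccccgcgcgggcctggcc
Cebpb, chr2:167688665-167688914, plus strand: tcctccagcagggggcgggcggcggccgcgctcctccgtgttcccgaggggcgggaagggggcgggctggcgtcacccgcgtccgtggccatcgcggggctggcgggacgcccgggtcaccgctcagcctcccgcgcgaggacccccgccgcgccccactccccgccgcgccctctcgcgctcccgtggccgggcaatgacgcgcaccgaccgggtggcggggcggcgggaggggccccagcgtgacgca
Runx1, chr16:92826075-92826324, minus strand: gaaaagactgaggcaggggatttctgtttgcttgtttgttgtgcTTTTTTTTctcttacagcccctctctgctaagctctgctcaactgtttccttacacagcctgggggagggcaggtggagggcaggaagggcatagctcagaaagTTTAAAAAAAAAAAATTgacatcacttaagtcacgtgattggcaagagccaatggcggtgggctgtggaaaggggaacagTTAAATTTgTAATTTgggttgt
Runx1, chr16:92697330-92697579, minus strand: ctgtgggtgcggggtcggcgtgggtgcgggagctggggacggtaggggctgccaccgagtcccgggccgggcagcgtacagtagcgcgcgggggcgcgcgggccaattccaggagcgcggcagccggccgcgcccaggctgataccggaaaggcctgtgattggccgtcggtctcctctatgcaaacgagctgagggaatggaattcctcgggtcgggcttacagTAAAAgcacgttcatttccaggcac
Tal1, chr4:115056176-115056425, plus strand: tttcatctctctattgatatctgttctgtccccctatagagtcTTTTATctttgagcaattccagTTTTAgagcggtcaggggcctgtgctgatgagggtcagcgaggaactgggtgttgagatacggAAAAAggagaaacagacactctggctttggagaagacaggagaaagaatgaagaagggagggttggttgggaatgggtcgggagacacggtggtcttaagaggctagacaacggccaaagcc

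The Cebpb window held 0 such runs and 81.6% G and C, the Cebpa window 1 run of 7 bases and 66.4% G and C, and the outer Irf8 window 2 runs and 67.2% G and C. The distal Runx1 window held 4 runs, the longest of 17 bases, at 45.6% G and C, and the outer Tal1 window 3 runs at 48.8%. The proximal Runx1 window held 1 run of 5 bases at 67.6% G and C. Of the inner windows not shown, that of Irf8 held 1 run of 10 bases at 54.0% and that of Tal1 held 2 runs at 62.8%. Of the members that did not pass or were not measured, the outer Gfi1 window held 1 run of 16 bases at 59.2%. The outer Gata2 window held 1 run of 9 bases at 67.2%, and the inner windows of both held 0. Over 32851 RefSeq promoters of this length, 82.1% held at least 1 run and the median was 2 runs. The median longest run was 7 bases and the median G and C content was 52.4%. Windows at 7 of the 10 genes were matched, 12 windows in all, and the letters TGATTTA, the core of a HOX and PBX composite site, occurred in none of them on either strand, against 2.61% of all promoters. The C/EBP letters TTGCNNAA were in the outer Tal1 window and the outer Gfi1 window (9.56% of all promoters). The ETS letters GAGGAA were in the proximal Runx1 window and the outer Tal1 window (23.3%), and the GATA letters AGATAA in the outer Tal1 window (9.99%). The RUNX letters TGTGGT were in none of the 12 windows (14.0% of all promoters). Such letters are a description of these windows only.

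Values below are log2 ratios of DB818-treated to untreated cells after loess normalisation, unless a level or a fold is named. The mean over the 3 arrays was tested with limma against 0, with the Benjamini-Hochberg adjusted p taken over all 10957 genes measured on every array. Errors are standard errors of that fit (n = 3 arrays of different times). Cultures were not repeated at any time and the dyes were not swapped, so the p-values measure the spread between arrays of different times, and a gene's own dye bias, if it recurs on each array, cannot be told apart from the treatment. In total RNA, fewer cells of a type and less RNA per cell cannot be told apart. Repeated spots of 1 probe differed by 0.044, 0.034 and 0.051 (SD of the log2 ratio, 22 probes) on the 6, 12 and 24 h arrays. The labelled cell type was set against 8 myeloid marker genes, and all 8 were measured in both channels, the granule enzyme genes Mpo and Elane and the integrin gene Itgam among them. Spi1, itself a member, is also among the 8. None of the 5 erythroid, 4 megakaryocyte, 4 B cell and 4 T cell marker genes on the array was measured in both channels on every array, and of 5 mast cell and basophil genes 2 were, Mcpt8 and Hdc. The megakaryocyte gene Pf4 was measured on the 12 and 24 h arrays only.

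The factors changed in both directions and by little. Spi1, Irf8 and Cebpa fell, Cebpb, Runx1 and Tal1 rose, and Cebpd and Gfi1 did not pass the test. Each direction thus held 3 of 8 measured members (37.5%), where 20.0% of all tested genes were higher, 7.84% lower and 27.8% either. The members' median mean ratio was 0.03, that of all genes was also 0.03, and none of the 8 reached 1.5-fold at any time with these settings. With other settings Spi1, Irf8 (24 h, -0.66 with the scanner's processed signals) and Cebpb (24 h, 0.59 with median centring) did. Among all genes 1.5-fold was passed upward and downward by 0.131 and 0.0786% at 6 h, 0.105 and 0.0958% at 12 h, and 0.337 and 0.225% at 24 h. At 1.2-fold the count of members was 0 higher and 0 lower at 6 h (3.55 and 1.39% of all genes measured then), 2 higher and 2 lower at 12 h (2.91 and 1.36%), and 1 higher and 2 lower at 24 h (5.09 and 2.38%). At 6 h the count was 1 higher and 2 lower with the scanner's processed signals (1031 and 1165 of all genes, in place of 406 and 159), and 3 higher and 1 lower when each array was centred on its median in place of loess (2436 and 3805 genes). The plot of member ratios by time shows the split.

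**Figure D1:**
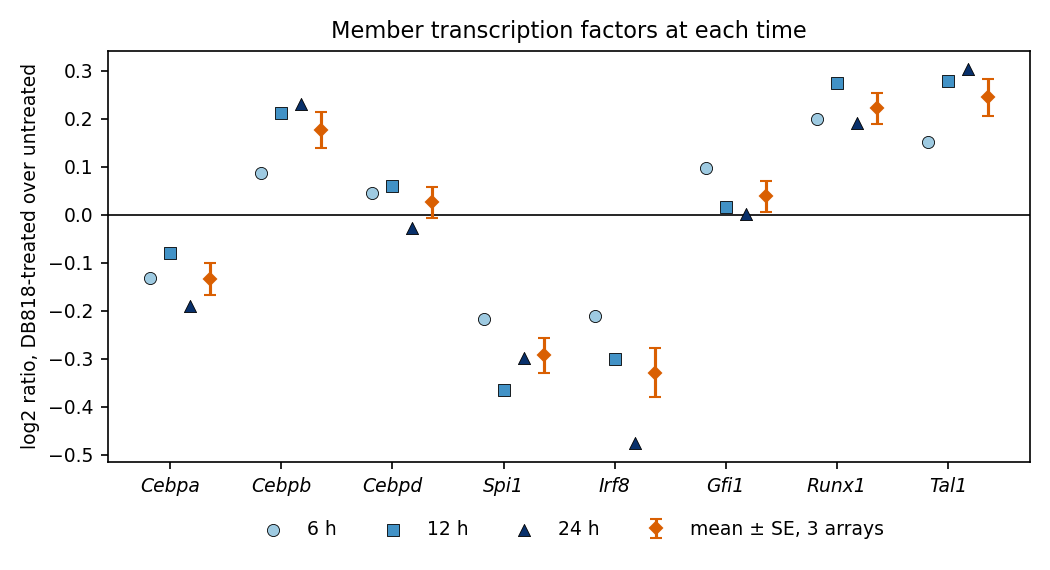
Log2 ratio of DB818-treated to untreated cells (y axis) for the 8 measured member genes (x axis), with 1 point for each array at 6, 12 and 24 h and a diamond with bars for the mean and its limma standard error. Irf8 reaches -0.48 at 24 h, Spi1 lies between -0.36 and -0.22, and Cebpd and Gfi1 lie near 0.

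Irf8, the monocyte and dendritic cell factor, was lower at every time and had the lowest mean with these settings, although Spi1 lay lower with each other background, with the smaller offset and with median centring. Its log2 ratio was -0.21 at 6 h, -0.30 at 12 h and -0.48 at 24 h, a mean of -0.33 ± 0.05 (adjusted p = 0.0074, limma), lower on 3 of 3 arrays. This is 1.26-fold lower on average and 1.39-fold lower at 24 h, where 0.389% of all measured genes had a lower ratio. As a normalised log2 level, Irf8 was at 9.19, 9.10 and 8.80 in treated cells at 6, 12 and 24 h, against 9.40, 9.40 and 9.27 in untreated cells. The 3 treated levels lay below all 3 untreated ones, and they spanned 0.39, against 0.13 in untreated cells. Irf8 had the largest difference between 24 and 6 h among the members, -0.26, and was the 1 member just past 1.2-fold (0.263 on the log2 scale) in that difference, where 2.24% of all genes were as far down and 2.88% as far up. With 1 array a time this difference has no replicate check. Spi1 also passed 1.2-fold in it with the scanner's processed signals (-0.31), and Spi1 (-0.30) and Tal1 (0.30) did with the negative control signal as background. Both Irf8 probes fell when fitted on their own over 15868 probes. The first, A_51_P187253, gave -0.20, -0.20 and -0.42 (mean -0.27, adjusted p = 0.0090, limma). The brighter probe, A_52_P354823, gave -0.23, -0.41 and -0.53 (mean -0.39, adjusted p = 0.0044, limma). With the negative control signal as background the mean of Irf8 was -0.46 and the call was lost (adjusted p = 0.054), within a range over 12 alternatives of 0.0025 to 0.054. Median centring gave a mean of -0.19 and a 6 h ratio of -0.045.

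Spi1, which encodes PU.1 and is listed on the array under its older name Sfpi1, was lower at every time. Its single probe gave -0.22 at 6 h, -0.36 at 12 h and -0.30 at 24 h, a mean of -0.29 ± 0.04 (adjusted p = 0.0049, limma), or 1.23-fold lower. The normalised log2 levels were 6.59, 6.54 and 6.51 in treated cells, against 6.81, 6.90 and 6.81 in untreated cells, with no overlap. The probe was dim. Its raw signal was 1.86, 1.84 and 1.79 times the median of the negative control spots in the treated channel at 6, 12 and 24 h, against 1.44, 1.54 and 1.47 times in the untreated channel. The size of the ratio depended on the background taken off. With the scanner's own processed signals it was -0.57, -0.92 and -0.87, a mean of -0.79, and with the negative control signal as background -0.56, -0.91 and -0.86. Median centring gave -0.68, -0.78 and -0.78 (mean -0.75). The direction and the call were the same in all 10 alternatives, with means between -0.79 and -0.26 and adjusted p between 2.47e-05 and 0.044 (limma).

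Cebpa, which encodes the C/EBP factor that starts granulocyte development, was slightly lower. Its ratios were -0.13, -0.08 and -0.19 at 6, 12 and 24 h, a mean of -0.13 ± 0.03 (adjusted p = 0.027, limma), or 1.10-fold lower on 3 of 3 arrays. Levels, averaged over 2 probes, were 8.10, 8.15 and 8.04 in treated cells, against 8.23 on each of the 3 arrays in untreated cells, whose range was 0.0075. That narrow range is of the average. By probe the untreated levels were 7.33, 7.26 and 7.28 (A_51_P214087) and 9.14, 9.21 and 9.17 (A_52_P168567). Treated and untreated levels did not overlap. One probe passed on its own, A_52_P168567 (-0.15, adjusted p = 0.017, limma), and the other, A_51_P214087, did not (-0.12, adjusted p = 0.055, limma). The call was lost without the 12 h array (-0.16, adjusted p = 0.10) and without the 24 h array (-0.11, adjusted p = 0.092), and over all 12 alternatives adjusted p ran from 0.014 to 0.10.

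Cebpb, whose product C/EBPβ serves emergency granulopoiesis and macrophage activation, moved the other way. It was at 0.09, 0.21 and 0.23 at 6, 12 and 24 h, a mean of 0.18 ± 0.04 (adjusted p = 0.017, limma), or 1.13-fold higher on 3 of 3 arrays. The levels were 11.04, 11.12 and 11.13 in treated cells, against 10.96, 10.91 and 10.90 in untreated cells, again with no overlap. The brighter probe A_52_P63553 gave 0.17, 0.25 and 0.32 (mean 0.25, adjusted p = 0.0053, limma), while A_52_P605846 gave -0.00, 0.17 and 0.14 and did not pass (mean 0.10, adjusted p = 0.10, limma). The levels of A_52_P605846 alone overlapped, at 9.34, 9.44 and 9.32 in treated cells and 9.34, 9.27 and 9.18 in untreated cells. The call was lost without the 12 h array (0.16, adjusted p = 0.13) and without the 24 h array (0.15, adjusted p = 0.052), within a range over 12 alternatives of 5.88e-05 to 0.13. Median centring took the mean to 0.52.

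Cebpd, an acute-phase member of the family, did not pass. Its ratios were 0.05, 0.06 and -0.03, a mean of 0.03 ± 0.03 (adjusted p = 0.56, limma). The levels were 11.99, 11.83 and 12.08 in treated cells, against 11.94, 11.77 and 12.11 in untreated cells, and they overlapped. The untreated level alone spanned 0.33 over the 3 arrays, the widest of the 8 members. Gfi1, a repressor that favours the neutrophil over the monocyte branch, did not pass either, at 0.10, 0.02 and 0.00 (mean 0.04 ± 0.03, adjusted p = 0.41, limma). Its levels were 10.92, 10.87 and 10.99 in treated cells, against 10.82, 10.85 and 10.99 in untreated cells. The ratio of Gfi1 was above 0 on each array by at most 1.07-fold, and at 24 h it was -0.010 with the scanner's processed signals and -0.015 with the negative control signal as background. Median centring gave 0.46, 0.32 and 0.37 for Gfi1, with a mean of 0.38 that passed (adjusted p = 0.000197, where the other 9 alternatives did not), and a mean of 0.45 for Cebpd that also passed (6.36e-05).

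Runx1, the core binding factor needed to make blood stem cells, was higher, but its probes disagreed. The gene's ratios were 0.20, 0.27 and 0.19 at 6, 12 and 24 h, a mean of 0.22 ± 0.03 (adjusted p = 0.0063, limma), or 1.17-fold higher. Levels were 7.44, 7.50 and 7.38 in treated cells, against 7.24, 7.23 and 7.19 in untreated cells, without overlap. The difference lay mainly in probe A_51_P206585, designed to a RefSeq transcript, at 0.32, 0.42 and 0.41 (mean 0.38 ± 0.04, adjusted p = 0.0017, limma). Probe A_52_P202358, designed to another Runx1 sequence, gave 0.08, 0.13 and -0.02 (mean 0.06, adjusted p = 0.26, limma). The gap between them was 0.23, 0.28 and 0.43 at 6, 12 and 24 h, the widest of the 4 members with a pair of probes. The second probe was dim, at 2.06 to 2.36 times the negative controls in the treated channel and 1.36 to 1.40 times in the untreated channel. Its own levels overlapped, at 6.79, 6.90 and 6.69 in treated cells and 6.71, 6.76 and 6.72 in untreated cells. Which transcripts the 2 probes detect was not tested.

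**Figure D2:**
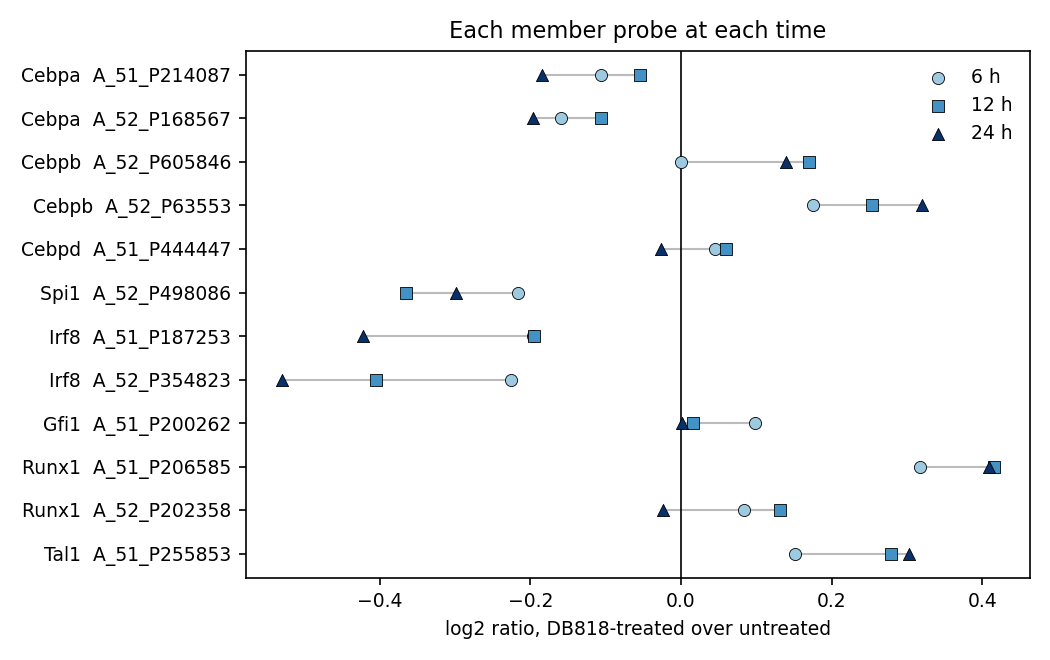
Log2 ratio of DB818-treated to untreated cells (x axis) for each of the 12 measured member probes (y axis), 1 point per array at 6, 12 and 24 h. The Runx1 probes stand 0.23 to 0.43 apart on the 3 arrays, the Irf8 probes lie below 0 throughout and the Cebpa probes lie 0.01 to 0.05 apart.

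Tal1, the basic helix-loop-helix factor of stem cells and of the erythroid, megakaryocyte and mast cell branches, was higher. Its single probe gave 0.15, 0.28 and 0.30 at 6, 12 and 24 h, a mean of 0.24 ± 0.04 (adjusted p = 0.0075, limma), or 1.18-fold higher on 3 of 3 arrays. The levels were 7.20, 7.39 and 7.31 in treated cells, against 7.05, 7.11 and 7.01 in untreated cells, and did not overlap. The probe was dim. Its raw signal was 2.95, 3.52 and 3.33 times the negative controls in the treated channel and 1.57, 1.64 and 1.53 times in the untreated channel. Median centring took the mean to 0.02 for Tal1 (adjusted p = 0.72) and to 0.01 for Runx1 (adjusted p = 0.78), so that neither passed, and the 6 h ratio of Tal1 was then -0.11. Without the 12 h array, Tal1 was at 0.23 (adjusted p = 0.059) and Runx1 at 0.20 (adjusted p = 0.061), and 0 members in place of 3 passed as higher. Over all alternatives adjusted p ran from 0.0023 to 0.72 for Tal1 and from 0.0017 to 0.78 for Runx1.

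Gata2, the partner of TAL1 in stem cells and mast cells, was not well above background. Its 2 probes gave raw signals of 63.5 to 66.5 in the treated channel, where the negative control median was 63.9 to 64.5. In the untreated channel they gave 72.7 to 76.2, where it was 73.8 to 74.8. These are 0.98 to 1.04 times the negative controls, and no ratio is given.

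**Figure D3:**
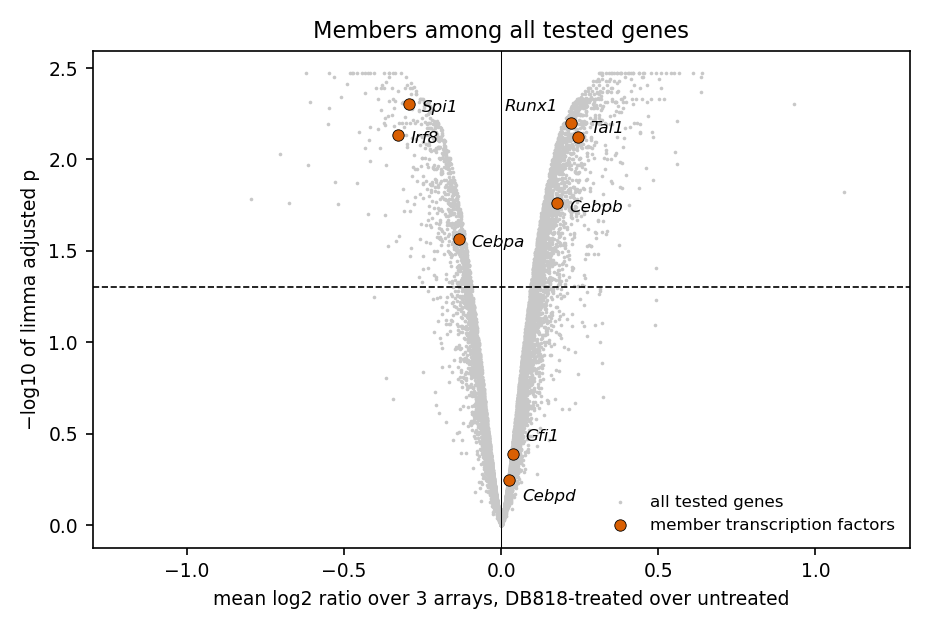
Mean log2 ratio of DB818-treated to untreated cells over 3 arrays (x axis) against −log10 of the limma adjusted p (y axis) for 10957 genes (grey) and the 8 measured members (coloured and named), with a dashed line at an adjusted p of 0.05. Irf8 and Spi1 lie at -0.33 and -0.29, where 0.584 and 0.812% of genes lie lower.

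Ordered by mean ratio the members ran Irf8, Spi1, Cebpa, Cebpd, Gfi1, Cebpb, Runx1 and Tal1. The means of Irf8 and Spi1 differed by less than their standard errors, as did those of Cebpd and Gfi1 and those of Runx1 and Tal1. The ratio was below 0 on all 3 arrays for 3 members and above 0 on all 3 for 4, Gfi1 included, where 21.0 and 41.0% of all genes did so. Treated and untreated levels did not overlap for 3 members with the treated level above and 3 with it below, where 18.3 and 7.95% of all genes did so. The difference between 24 and 6 h was above 0 for Cebpb (0.14) and Tal1 (0.15). It was -0.06 for Cebpa, -0.07 for Cebpd, -0.08 for Spi1, -0.10 for Gfi1 and -0.01 for Runx1, with a median over the members of -0.07 and over all genes of -0.00028.

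Euclidean distances over the 3 ratios were compared among those of the 10957 genes that have an established symbol. Closest to Irf8 were Aldh1b1 (0.058), Dusp6 (0.065), which encodes a MAP kinase phosphatase, and Cd1d1 (0.067), which encodes a lipid antigen-presenting molecule. Closest to Spi1 were Ergic3 (0.058), Tespa1 (0.067) and Cldn15 (0.067), and closest to Tal1 were Tmem158 (0.011), Lmo1 (0.014) and Sting1 (0.018). With 3 arrays such distances describe these arrays only.

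Among 25 genes for partners and antagonists of the members, 20 were measured, of which 4 rose, 0 fell and 16 did not pass (median mean ratio 0.04, against 0.03 for all genes). The shares over all genes, 20.0% higher and 7.84% lower, apply to each list here with these settings only. The partners' share of higher genes is the same as that of all genes. With the scanner's processed signals 2 partner genes were higher and 0 lower (593 and 643 of all genes). With median centring 6 were higher and 9 lower (4153 and 4477 of all genes). Id1, whose product blocks the E protein partners of TAL1, was at 0.35, 0.56 and 0.63 (mean 0.51 ± 0.05, adjusted p = 0.0041, limma). Zfpm1, which encodes the GATA cofactor FOG-1, was at 0.23, 0.56 and 0.66 (mean 0.48 ± 0.08, adjusted p = 0.0075, limma). The E protein gene Tcf12 (0.17) and Trib1 (0.15), whose product promotes C/EBPα degradation, also rose, and Trib1 was at -0.38 when arrays were centred on the median. Trib1 did not pass with processed signals (limma adjusted p = 0.056), negative controls as background (0.069) or no dim-probe filter (0.051). It also did not without the 12 h (0.185) or 24 h array (0.106). Tcf12 did not pass with processed signals (0.104), negative controls (0.099) or without the 12 h array (0.072). Zfpm1 did not with negative controls (0.061). Of the other genes for direct partners of RUNX1 and TAL1, Cbfb (0.02), Lmo2 (0.10), Ldb1 (-0.09) and Tcf3 (0.00) did not pass. Of 31 other hematopoietic factor genes, 23 were measured, of which 3 rose, 2 fell and 18 did not pass (median -0.02), with Stat5b at 0.27, Maf at 0.21 and the progenitor factor gene Myb at -0.21. Here median centring gave 5 higher and 10 lower, and the scanner's processed signals 2 and 0.

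Of 18 genes known as C/EBP targets, 16 were measured, of which 0 rose, 8 fell and 8 did not pass, with a median mean ratio of -0.11 (all genes: 20.0% higher and 7.84% lower). This list, like the others, was chosen with earlier results of these data known, so its counts are a description only. The neutrophil elastase gene Elane was at -0.58, -0.57 and -0.71 (mean -0.62 ± 0.04, adjusted p = 0.0034, limma), and the myeloperoxidase gene Mpo at -0.32, -0.52 and -1.18 (mean -0.67 ± 0.14, adjusted p = 0.017, limma). Mpo did not pass with the scanner's processed signals (limma adjusted p = 0.077), the negative controls (0.107) or median centring (0.335). The count of 8 was 3 with the scanner's processed signals, 4 without the 12 h array, and 2 with median centring, where 4 were higher. Over all genes these settings gave 643, 153 and 4477 lower. Without the 6 h array 8 targets were lower and 3 higher, and with the brightest probe 8 and 1. Lcn2, a later granule gene, was at 0.01, 0.25 and 0.71 and did not pass. Ltb4r1 (0.05, 0.27 and 0.63), Lbp and Csf3r were also above 0 on every array and did not pass (limma adjusted p = 0.052, 0.059 and 0.055). Of 25 target genes of PU.1 and IRF8, 22 were measured, of which 8 rose, 7 fell and 7 did not pass (median -0.07), against 3 and 3 with the scanner's processed signals and 12 and 5 with median centring. The β-glucan receptor gene Clec7a (-0.53) and the kinase gene Btk (-0.31) fell, and Itgam (0.38) and Tlr4 (0.27) rose. The GM-CSF receptor α-chain gene Csf2ra was at 0.17 and the M-CSF receptor gene Csf1r at -0.13, both past the threshold. Of 17 genes on the array for lineages that use GATA2 and TAL1, 3 were measured, of which Kit (0.32) and Mcpt8 (0.35) rose and Hdc (-0.36) fell. Kit passed in all 10 alternatives. Mcpt8 did not pass with the scanner's processed signals (adjusted p = 0.054), the negative controls (0.083) or without the 12 h array (0.056), within a range of 0.00093 to 0.083. Hdc did not pass in 6 of 10, with adjusted p from 0.00082 to 0.10 over all of them, and Clec7a did not with the processed signals (0.056), the negative controls (0.069) or without the 12 h array (0.053), within 0.0012 to 0.069. With median centring Elane was at -0.19, Clec7a at -0.32, Mpo at -0.17, Btk at -0.06, Maf at 0.01 and Myb at -0.10. Without the 12 h array 441 of all genes were higher and 153 lower. In that setting 2 partner genes rose, 1 of the other factor genes rose and 0 fell, and 2 of the PU.1 and IRF8 targets rose and 1 fell.

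**Figure D4:**
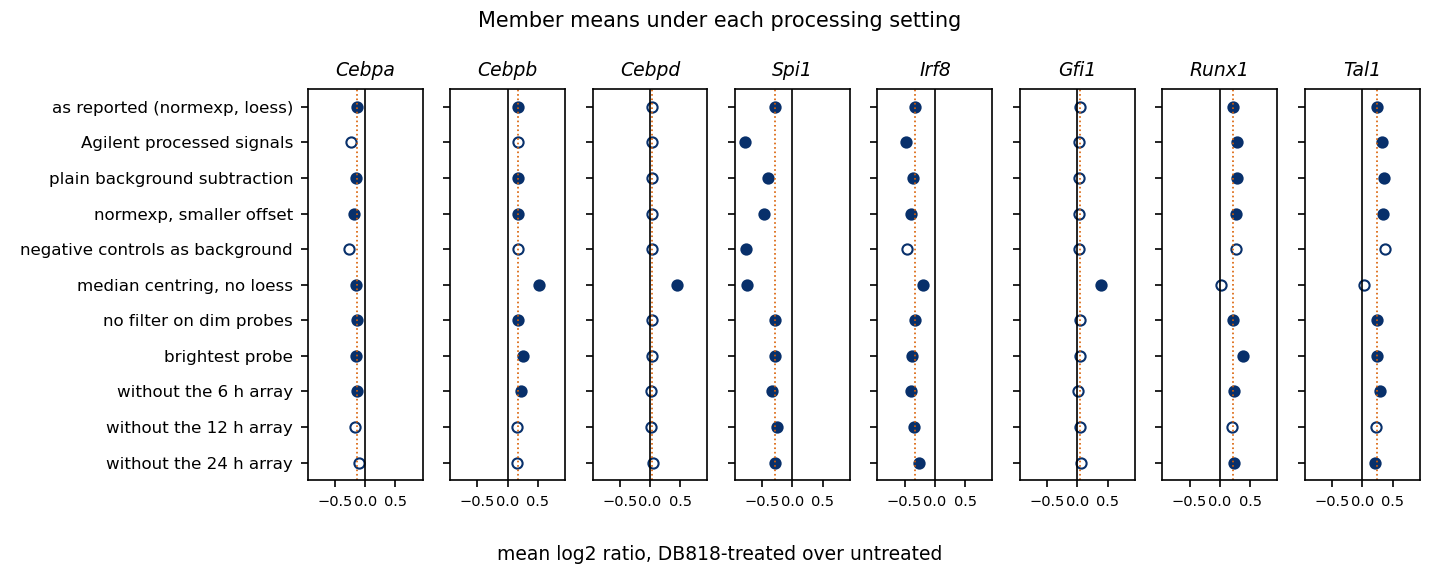
Mean log2 ratio of DB818-treated to untreated cells (x axis) for each measured member under each processing setting (y axis), with filled points where the limma adjusted p passed 0.05 and open points where it did not, and a dotted line at the reported mean. Spi1 passes throughout between -0.79 and -0.26, and Runx1 and Tal1 lie at 0.01 and 0.02 with median centring.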

How the data were processed

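Total RNA of MigA9 cells was compared on 3 two-colour arrays, with 1 sample in each of the groups 6, 12 and 24 h. The authors extracted spots with Agilent Feature Extraction 9.1.3.1, per the file headers, and the deposited files hold a foreground and a background intensity for each dye. The deposited value table holds the scanner's log10 ratio, and its largest difference from the scanner files was 0. Directions follow the dyes in the labels.

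In R 4.3.3 (limma 3.58.1, the data-table package 1.17.8) the intensities were corrected with normexp (offset 50) and loess, array by array, giving log2 ratios of the deposited signals. Control spots had weight 0 in the loess fit, and outlier spots (37, 36 and 52) were left out. A probe was used if unsaturated and, by the scanner's call, well above background in Cy5 and in Cy3 (40.6, 40.6 and 41.0% of probes). Spots of a probe and then probes of a gene were averaged. An offset of 50 draws the ratios of dim probes toward 0. Levels are log2 channel signals after quantile normalisation of the average spot intensity between arrays. This step leaves the log2 ratios unchanged, so levels and ratios are not separate measurements. Levels are not compared between probes. The test was limma's intercept fit with eBayes (2 residual and 4.81 prior degrees of freedom), checked on simulated data. The simulated errors were independent, with no dye bias and no trend with time, so the check does not cover these limits of the design. Counting error does not apply to arrays, whose number limits the precision. Gene names came from RefSeq by accession (22864 probes), symbol (6732) or synonym (3498), and otherwise from the files (8080).

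Named genes were all members, up to 4 of each list with the largest mean ratio among those that passed with 1 sign, and exceptions. Also named were the 3 genes with an established symbol closest to each of the 3 members with the largest means. The members and lists were chosen with earlier results of these data known. Alternatives covered background, offset, normalisation, the dim-probe filter, the choice of probe and leaving out each array. Sequences were read with pandas 2.3.3 in Python 3.11.15, and figures were drawn with matplotlib 3.10.9 and numpy 2.4.6.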

Additional observations from a re-analysis of the deposited data

Results flagged for a closer look

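The log2 ratio of Cebpd differed between 24 and 6 h by -0.072, with ratios of 0.05 at 6 h, 0.06 at 12 h and -0.03 at 24 h. It drew attention because the ratio was above 0 at the first times and below 0 at the last. The difference was not tested, since each time had 1 array, and the SD of repeated spots was 0.044 and 0.051 on those arrays.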

How the results depend on the processing

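Spi1 passed in all 10 alternatives and Irf8 in 11 of 12. With the negative control signal as background, chosen after the data were seen, Irf8 was at -0.46 (adjusted p = 0.054), Cebpa at -0.27 (0.061), Cebpb at 0.17 (0.10), Runx1 at 0.26 (0.060) and Tal1 at 0.38 (0.058). That setting left 299 genes higher and 317 lower, in place of 2189 and 859, and 0 members higher and 1 lower, in place of 3 and 3. With the scanner's processed signals 593 genes were higher, Cebpa was at -0.23 (0.062) and Cebpb at 0.17 (0.088).

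Median centring in place of loess gave 4153 genes higher and 4477 lower. It took Cebpd to 0.45 (6.36e-05) and Gfi1 to 0.38 (0.000197), both past the threshold, and Runx1 to 0.013, Tal1 to 0.020, Cebpb to 0.52, Spi1 to -0.75 and Irf8 to -0.19. It turned Chil3 to 0.10, Nfe2 to 0.21 and Trib1 to -0.38, which were at -0.36, -0.14 and 0.15 with loess. After median centring the median 24 h ratio ran from -0.72 in the dimmest of 10 equal groups of array spots to 0.43 in the brightest. With loess it lay between -0.016 and 0.078 in these groups.

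Leaving out 1 array gave 441 to 2271 genes higher and 153 to 948 lower, 0 to 3 members higher and 2 to 3 lower, with 441, 153 and 0 all without the 12 h array. The means ran from -0.16 to -0.11 for Cebpa, 0.15 to 0.22 for Cebpb, 0.20 to 0.24 for Runx1 and 0.22 to 0.29 for Tal1. Probes fitted on their own, also chosen after the data were seen, lost the call for A_51_P214087 (Cebpa, -0.12), A_52_P605846 (Cebpb, 0.10) and A_52_P202358 (Runx1, 0.064). The cause of these changes was not tested. Each array already pairs treated with untreated RNA, and the fit uses those ratios. No paired analysis was possible because each time had 1 sample, so that no replicate number linked the times. Signal over background limits Spi1, Tal1 and 1 Runx1 probe, and 3 arrays of different times limit every test.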
